A study of Mus musculus with 28 samples.

Results

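The RNA levels of 10 genes of the oligodendrocyte lineage were followed across bulk RNA-seq of brain neural stem cells (NSCs), peripheral neural stem cells (pNSCs), neural crest stem cells (NCSCs) and cells of the lung and tail. The genes were chosen by name as the rows for *Pdgfra*, *Cspg4*, *Gpr17*, *Bcas1*, *Myrf*, *Cnp*, *Mag*, *Mog*, *Mobp* and *Opalin*, which are 10 of the 28244 genes in the count table. The table holds 28 samples in 11 groups. It falls into 3 experiments, named after the reporter mice used, and each pNSC group was compared with the brain NSCs of its own experiment, and also with the cells that stand for its tissue of origin or with NCSCs.

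The first experiment has 2 samples each of Brain-NSC, Lung-pNSC, Tail-pNSC, Lung (lung cells) and Tail (tail cells). These labels name no reporter. They match the groups of the experiment with Nes-GFP mice, in which the *Nestin* regulatory sequence drives GFP, lung pNSCs came from GFP-positive cells of adult lung and tail pNSCs from GFP-positive cells of postnatal tail. The second has 3 samples each of Wnt1Cre-mTmG brain NSCs, Wnt1Cre-mTmG Tail pNSCs, Wnt1Cre-mTmG DRG pNSCs and DRG NCSCs. In these mice Wnt1-Cre turns on GFP in the neural crest and its progeny, the pNSCs from postnatal tail and dorsal root ganglia (DRG) were GFP-negative, and the NCSCs came from DRG of adult wild-type mice. The third has 3 samples each of Sox2-GFP brain NSCs and Sox2-GFP lung pNSCs, where GFP sits in the *Sox2* locus and the pNSCs came from GFP-positive cells of postnatal lung, and it uses the same 2 Lung samples as the first. These Lung samples are thus set against pNSCs of adult and of postnatal lung, and cannot match the donor age of both. The part of age and experiment in those differences was not tested. Adult mice were about 4 to 6 weeks old and postnatal mice about 1 to 5 days old, and the age of the brain NSC donors is not given for each group. All labels give the strain C57BL/6, while the methods describe wild-type CD1 or CD1 and C3H mixtures with which the reporter mice were bred. NSCs and pNSCs were passaged in the same medium with 10 ng/ml each of EGF and bFGF. A pNSC line was started from a picked cluster and is usually clonal, and the study calls the replicates biological and took most brain NSC controls from the mice that gave the pNSCs, but no label ties a replicate to an animal or a culture. The p-values below therefore measure only the spread between these samples, which may be partly technical.

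Oligodendrocytes wrap axons of the central nervous system in myelin. Their precursors (OPCs) carry the receptor PDGFRα and the proteoglycan NG2, encoded by *Pdgfra* and *Cspg4*, and divide in response to PDGF. When they commit to differentiate they pass through a stage marked by the receptor GPR17 and by BCAS1, the transcription factor MYRF then switches on the myelin genes, and CNP, MAG, MOG, MOBP and OPALIN are made as myelin is laid down. Several of the genes are also used outside this lineage. *Pdgfra* is a marker of fibroblasts, *Cspg4* of pericytes, and *Mag* is made by Schwann cells, the myelinating cells of peripheral nerves. NSCs grown with growth factors are known to express OPC genes while undifferentiated.

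The total count per sample lay between 9808246 and 22637031, with the Wnt1Cre-mTmG brain NSCs and DRG pNSCs at the lower end, and the detection floor of 3 counts per sample corresponds to 0.130 to 0.296 cpm (read counts scaled to library size with edgeR's trimmed mean of M values, TMM). Replicates lay close together, with a common biological coefficient of variation of 0.0258, 0.0480 and 0.0155 in the 3 experiments. DRG NCSCs replicate 3 stood apart: its counts differed from replicates 1 and 2 by a chi-square per gene of 16.8 and 21.0, against 2.22 between replicates 1 and 2 and 1.09 to 2.82 in the other groups. The differences of the 10 genes from NCSCs that were called are therefore also given without it, as log2 fold changes, where *Mag* has no such value, and those of the further genes below are given only with it. Counts were tested with edgeR's quasi-likelihood test in each experiment, two-sided, and a gene was called at an adjusted p (Benjamini–Hochberg) under 0.05 if its log2 fold change was also 1 or more in either direction. Errors of log2 fold changes are standard errors. They stand alone where the adjusted p is far below 0.05, and in some differences that are said not to be called.

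The regions just upstream of 5 of the genes are shown, 2 with high levels in every NSC and pNSC group (*Cnp*, *Cspg4*), 1 with levels that differed between groups (*Pdgfra*) and 2 with few or no reads (*Mog*, *Opalin*). The set of RefSeq promoters (GRCm38.p6) used here held full-length entries for 7 of the 10 genes, and none for *Gpr17*, *Bcas1* and *Myrf*. Each run is written 5′ to 3′ on the gene's strand and ends before the gene starts, with every CpG in capitals. The positions are chr11:100574689-100574903 (plus strand) for *Cnp*, chr9:56864854-56865032 (plus) for *Cspg4*, chr5:75152001-75152250 (plus) for *Pdgfra*, chr17:37023399-37023648 (minus) for *Mog* and chr19:41077114-41077363 (minus) for *Opalin*.
Cnp: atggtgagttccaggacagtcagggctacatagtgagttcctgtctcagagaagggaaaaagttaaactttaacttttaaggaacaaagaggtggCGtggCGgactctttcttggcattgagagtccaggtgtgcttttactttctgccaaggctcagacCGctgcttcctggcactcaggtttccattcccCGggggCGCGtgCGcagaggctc
Cspg4: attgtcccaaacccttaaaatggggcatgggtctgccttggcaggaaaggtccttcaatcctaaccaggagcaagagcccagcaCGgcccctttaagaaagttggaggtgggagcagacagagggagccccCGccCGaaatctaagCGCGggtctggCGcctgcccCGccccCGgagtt
Pdgfra: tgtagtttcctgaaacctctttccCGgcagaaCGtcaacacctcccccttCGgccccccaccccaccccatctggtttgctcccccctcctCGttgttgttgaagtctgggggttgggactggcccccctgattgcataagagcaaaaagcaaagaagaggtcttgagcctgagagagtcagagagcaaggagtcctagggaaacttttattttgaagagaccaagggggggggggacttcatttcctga
Mog: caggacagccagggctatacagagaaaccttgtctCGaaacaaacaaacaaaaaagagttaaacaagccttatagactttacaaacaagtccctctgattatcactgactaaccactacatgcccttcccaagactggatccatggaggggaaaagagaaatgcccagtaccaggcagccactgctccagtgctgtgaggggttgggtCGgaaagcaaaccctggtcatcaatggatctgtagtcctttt
Opalin: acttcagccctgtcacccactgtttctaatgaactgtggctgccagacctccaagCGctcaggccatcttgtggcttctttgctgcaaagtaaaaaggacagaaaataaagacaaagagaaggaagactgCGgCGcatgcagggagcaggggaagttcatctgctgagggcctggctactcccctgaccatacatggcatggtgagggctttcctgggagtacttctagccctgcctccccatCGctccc

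CpGs were more frequent upstream of *Cnp* and *Cspg4*, with 7 and 8 in the 215 and 179 bases shown, than upstream of *Mog*, *Opalin* and *Pdgfra*, with 2, 4 and 4 in 250 bases. Over the full 250 bases before the RefSeq start the ratio of observed to expected CpG was 0.636 for *Cnp* and 0.527 for *Cspg4*, higher than in 68.6% and 61.3% of 32851 mouse promoters of that length (median 0.373). It was 0.387 for *Mobp*, 0.217 for *Opalin*, 0.216 for *Pdgfra*, 0.147 for *Mog* and 0.105 to 0.128 for the 3 starts of *Mag*. The E-box CAGCTG, the same on both strands, stood in 13% of all promoters and in none of the 7, and ACAAT, the core bound by SOX factors (ATTGT on the other strand), stood in 27.7% of all promoters and once in these, at the start of the *Cspg4* run.

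Of the 10 genes, 6 were read in every sample and 4 were at or near 0 in most. *Pdgfra*, *Cspg4*, *Gpr17*, *Bcas1*, *Myrf* and *Cnp* had more than 3 counts in all 28 samples. *Mag*, *Mog*, *Mobp* and *Opalin* did not, and no NSC or pNSC group had more than 3 counts of *Mag* or *Mog* in every sample. Per kilobase of exon, the Brain-NSC level was highest for *Cnp* at 33.4 cpm per kb, followed by *Bcas1* at 17.0, *Cspg4* at 10.8, *Gpr17* at 5.03, *Pdgfra* at 0.860 and *Myrf* at 0.319. *Cnp* was also highest per kilobase in Sox2-GFP brain NSCs at 95.7, but there *Gpr17* came next at 75.7.

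**Figure D1:**
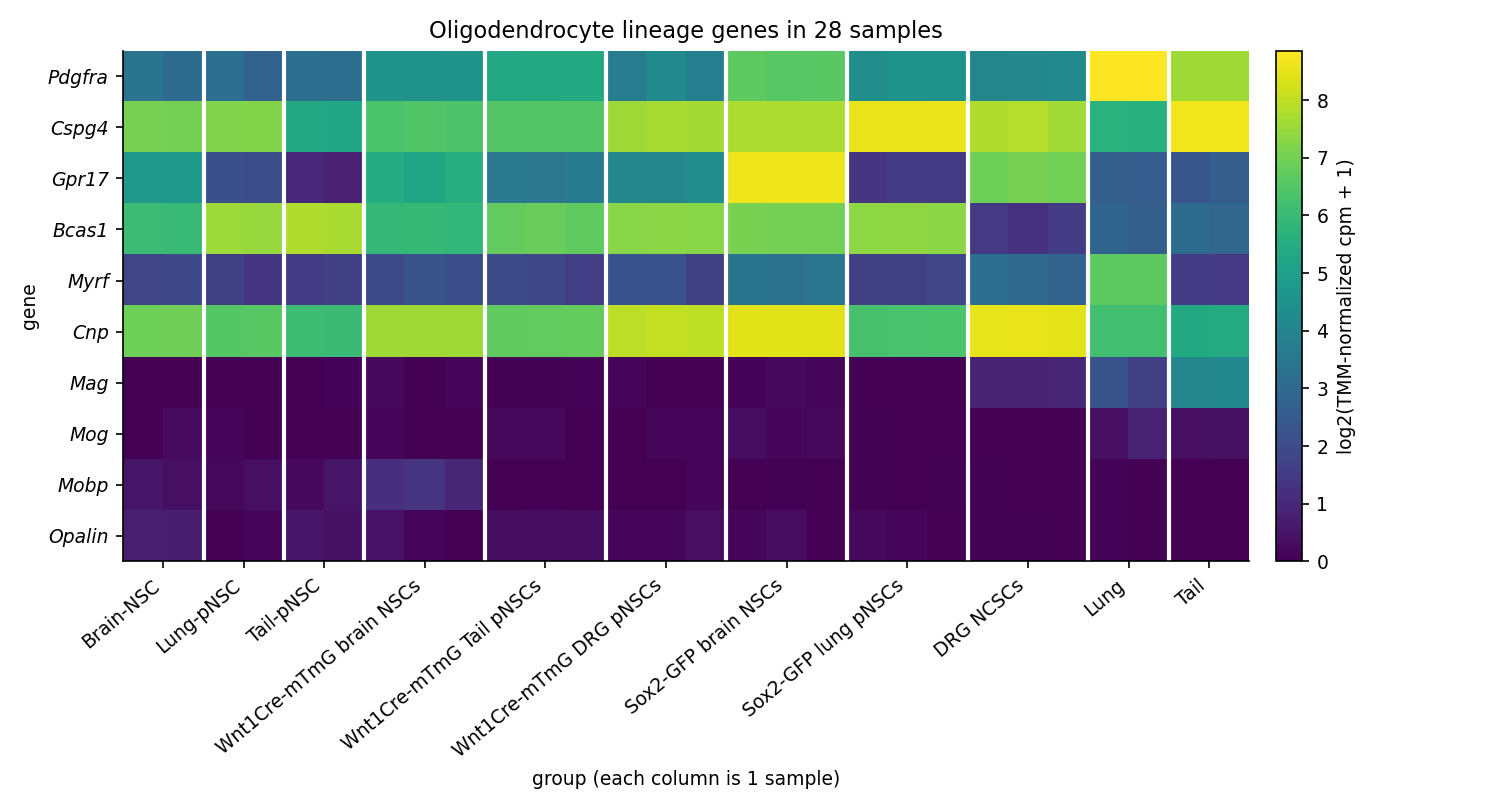
Levels of the 10 genes in 28 samples, as log2(TMM-normalized cpm + 1); each column is 1 sample and white lines separate the groups. The upper 6 rows are read in every sample, and the lower 4 rows are near 0 except *Mag* in Tail, Lung and DRG NCSCs and *Mobp* in Wnt1Cre-mTmG brain NSCs.

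**Figure D2:**
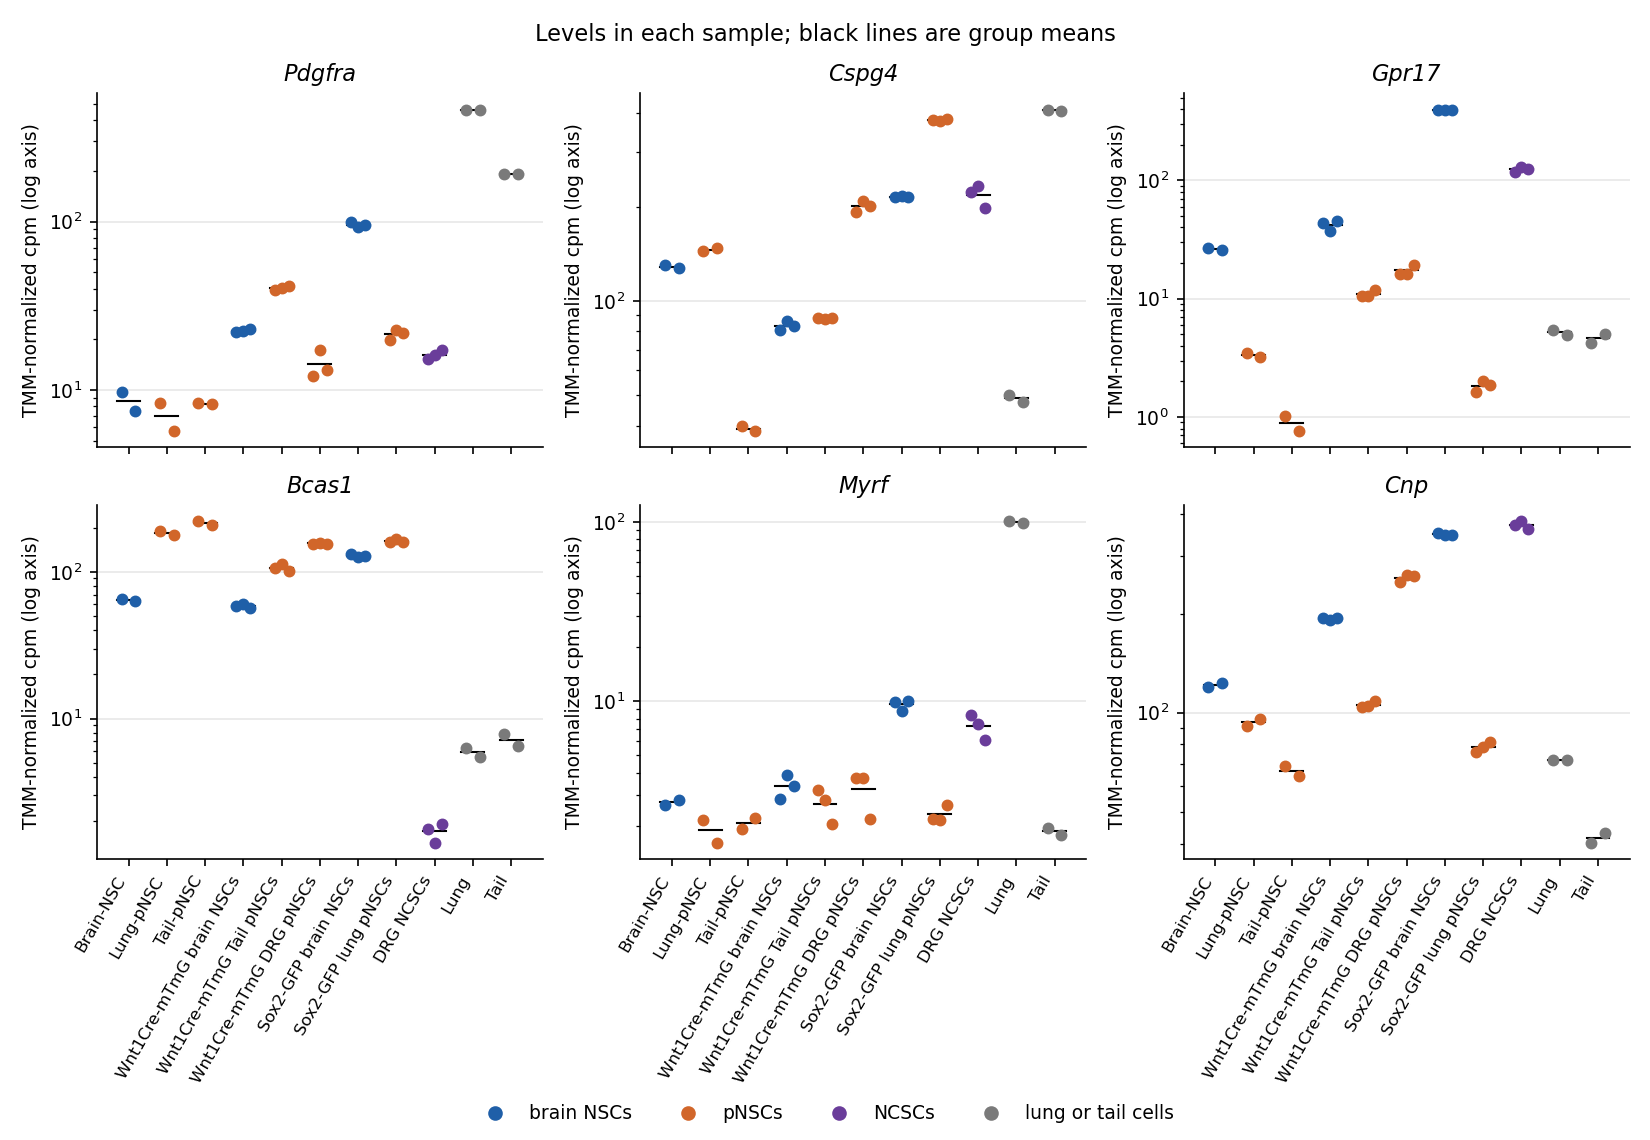
TMM-normalized cpm of 6 genes in every sample, on a log axis of its own for each gene, with black lines at the group means and colours for the kind of cell. *Gpr17* is lower in each pNSC group than in the brain NSCs of its experiment, and *Bcas1* stands at 58.5 cpm or above in every NSC and pNSC group mean and at 7.19 cpm or below in NCSCs, lung cells and tail cells.

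Compared with the brain NSCs of the same experiment, the genes of the committed stage moved in opposite directions in pNSCs, *Gpr17* down and *Bcas1* up, and few of the others passed the thresholds more than once. In Tail-pNSC against Brain-NSC, 3 of the 8 genes that passed the low-count filter were called, against 10.9% of all 16948 genes tested, 1 higher (4.31% of all genes) and 2 lower (6.59%). In Lung-pNSC against Brain-NSC 3 of 8 were called, against 8.71%, 1 higher (4.56%) and 2 lower (4.15%). In Wnt1Cre-mTmG Tail pNSCs 2 of 8 were called, against 18.2% of 14448 genes, with 0 higher (9.16%) and 2 lower (9.05%). In Wnt1Cre-mTmG DRG pNSCs 4 of 8 were called, against 9.53%, 2 higher (3.12%) and 2 lower (6.41%). In Sox2-GFP lung pNSCs 5 of 7 were called, against 15.7% of 16234 genes, with 0 higher (5.76%) and 5 lower (9.99%). The median log2 fold change of the tested members was -0.63, -0.33, -0.57, -0.36 and -2.15 in these comparisons, in the same order, and that of all genes lay between 0.00 and 0.01. The first and second comparisons share the Brain-NSC samples, and the tail and DRG comparisons of the Wnt1-Cre experiment share their brain NSCs.

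**Figure D3:**
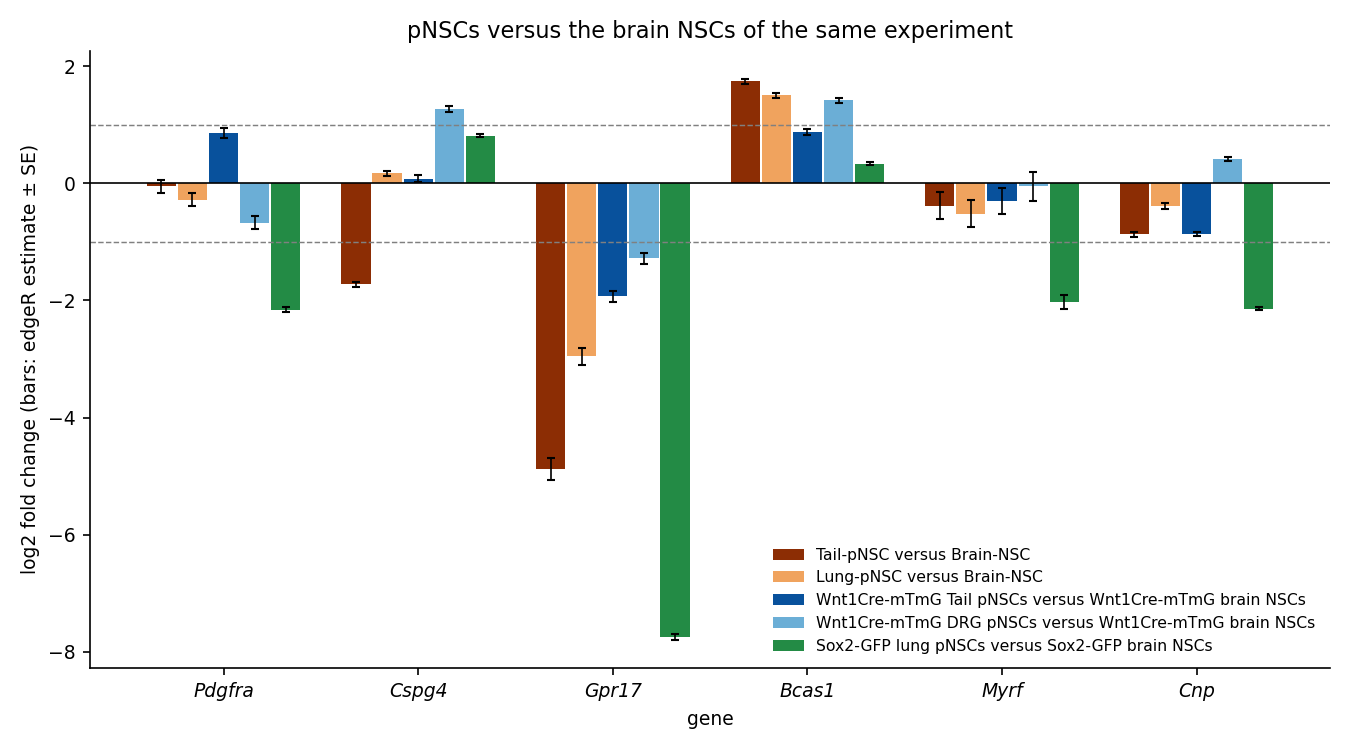
log2 fold change of pNSCs over the brain NSCs of the same experiment for 6 genes (bars, edgeR estimate; whiskers, standard error), with dashed lines at 1 and -1. The bars of *Gpr17* are below -1 in all 5 comparisons, those of *Bcas1* are above 0 in all 5, and those of *Pdgfra*, *Cspg4* and *Cnp* point both ways.

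*Pdgfra*, the PDGF receptor of OPCs (chr5:75152292-75198215, plus strand, GRCm38), was low in Brain-NSC, at 9.74 and 7.502 cpm, and of similar level in Lung-pNSC (8.35 and 5.69) and Tail-pNSC (8.40 and 8.21). The samples of these 3 groups overlapped, and the log2 difference from Brain-NSC was -0.05 ± 0.11 in Tail-pNSC (edgeR, adjusted p = 0.789) and -0.28 ± 0.11 in Lung-pNSC (adjusted p = 0.0405), neither called. Sox2-GFP brain NSCs had 99.5, 93.3 and 95.5 cpm and Sox2-GFP lung pNSCs 19.9, 22.7 and 21.9, with no overlap, so that *Pdgfra* was 4.46-fold lower in the pNSCs (log2 fold change -2.16 ± 0.04). Wnt1Cre-mTmG brain NSCs stood between, at 21.98, 22.4 and 22.9 cpm.

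In the Wnt1-Cre experiment the tail and DRG pNSCs lay on opposite sides of the brain NSCs. *Pdgfra* read 39.4, 40.4 and 41.7 cpm in Wnt1Cre-mTmG Tail pNSCs, above every brain NSC sample (log2 fold change 0.85 ± 0.09, edgeR adjusted p = 1.09e-07, short of the fold limit), and 12.0, 17.3 and 13.2 cpm in DRG pNSCs, below every one (-0.67 ± 0.11, adjusted p = 5.06e-05, also short of it). The Wnt1Cre-mTmG Tail pNSCs also had reads of mesenchymal genes. *Col1a1*, the main collagen gene of fibroblasts, had a mean of 102 cpm there against 2.82 in the brain NSCs, and *Pdgfrb*, the PDGF receptor of pericytes, 8.82 against 0.544. Of 7 fibroblast genes 5 were higher and none lower (summed level 455 to 465 cpm against 64.8 to 68.2). Of 5 pericyte genes tested 3 were higher (*Pdgfrb*, *Notch3* and *Des*) and 1 lower (*Rgs5*). The pericyte genes summed to 337 to 340.2 cpm against 162 to 164, of which *Pdgfrb* was a small part in both groups. Of all genes tested, 9.16% were higher and 9.05% lower in this comparison. In the DRG pNSCs 1 of the 7 fibroblast genes was higher (3.12% of all genes) and 4 were lower (6.41%). In Tail-pNSC against Brain-NSC, where *Pdgfra* was not called, 4 were higher (4.31% of all genes) and 0 lower (6.59%). The sums there were 92.0 to 95.2 cpm against 37.0 to 37.1. In the same comparison 0 of 6 pericyte genes were called (10.9% of all genes). Against their brain NSCs, 1 fibroblast gene was higher (4.56% of all genes) and 0 lower (4.15%) in Lung-pNSC. In Sox2-GFP lung pNSCs 1 was higher (5.76%) and 2 lower (9.99%). The part of other cells in the *Pdgfra* values was not tested. In bulk RNA, a change in the share of cells that express a gene and a change in RNA per cell cannot be told apart.

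Lung and tail cells had the highest *Pdgfra* levels of all groups, at 459 and 463 cpm in Lung and 191 and 192 cpm in Tail. Against these, *Pdgfra* was lower by a log2 fold change of -6.05 ± 0.06 in Lung-pNSC, -4.44 ± 0.03 in Sox2-GFP lung pNSCs and -4.61 ± 0.06 in Tail-pNSC. Of all genes, 32.6% were lower in Tail-pNSC than in Tail, and 34.9% in each lung pNSC group than in Lung. The fibroblast genes were also lower in these pNSC groups, 6 or 7 of the 7 in each. Their summed level was 3840 to 3946 cpm in Lung and 72284 to 74189 in Tail. It was 55.3 to 59.9 in Lung-pNSC, 69.3 to 74.6 in Sox2-GFP lung pNSCs and 92.0 to 95.2 in Tail-pNSC. Tail thus had the higher fibroblast sum but less *Pdgfra* than Lung. In DRG NCSCs the sum was 2912 to 3554 cpm against 64.8 to 68.2 in Wnt1Cre-mTmG brain NSCs. Their *Pdgfra* means were 16.2 and 22.4 cpm (log2 difference -0.46 ± 0.09, not called). *Pdgfrb* was at 0 in both Tail-pNSC samples. The part of fibroblasts in the *Pdgfra* differences was not tested. In DRG NCSCs *Pdgfra* read 15.2, 16.2 and 17.3 cpm, overlapping with the DRG pNSCs (log2 difference -0.21 ± 0.10, edgeR adjusted p = 0.0663) and below the Wnt1Cre-mTmG Tail pNSCs, which were 2.49-fold higher (log2 fold change 1.32 ± 0.08, and 1.36 without NCSC replicate 3). Over all 11 groups the order by mean ran from Lung to Lung-pNSC, a span of 65.6-fold, and 4 of the 10 pairs of neighbouring groups overlapped.

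*Cspg4*, which encodes the NG2 proteoglycan (chr9:56865033-56899870, plus strand), was expressed strongly in NSCs and pNSCs but did not follow *Pdgfra*. Tail-pNSC had 39.8 and 38.4 cpm against 130.3 and 128 in Brain-NSC, so that the gene was 3.30-fold lower (log2 fold change -1.72 ± 0.05), while Lung-pNSC had 144 and 148 (0.17 ± 0.04, not called). Wnt1Cre-mTmG brain NSCs had 80.8, 86.1 and 83.4 cpm. The Wnt1Cre-mTmG Tail pNSCs, at 88.3, 87.7 and 88.2, lay just above them (log2 difference 0.08 ± 0.05, edgeR adjusted p = 0.187), and the DRG pNSCs, at 193, 209 and 201, were 2.41-fold higher (1.27 ± 0.05). DRG NCSCs, at 224, 233 and 199, overlapped with the DRG pNSCs (-0.14 ± 0.05 for the pNSCs against them, edgeR adjusted p = 0.016, not called). The NCSCs were 2.64-fold above the brain NSCs (1.40 ± 0.05, and 1.47 without NCSC replicate 3). The tail pNSCs lay below the NCSCs (-1.32 ± 0.05, and -1.38 without it). Genes of other cell types were higher in NCSCs than in brain NSCs as well. These were 4 of 5 pericyte genes tested, with 1 lower, 6 of 7 fibroblast genes and 4 of 4 leukocyte genes. Of all genes tested there, 22.1% were higher and 14.8% lower. *Pdgfrb* had a mean of 141 cpm against 0.544. The summed level of the fibroblast genes was 2912 to 3554 cpm against 64.8 to 68.2. That of the leukocyte genes was 79.1 to 85.9 against 1.97 to 2.71, and that of the pericyte genes 159 to 174 against 162 to 164. The pericyte genes that were higher were *Pdgfrb*, *Rgs5*, *Abcc9* and *Des*, and the lower one was *Notch3*. The pericyte sum thus joins genes that moved in opposite directions. The part of these cell types in the *Cspg4* level was not tested.

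Sox2-GFP lung pNSCs, with 379.7, 377 and 383 cpm, had the highest *Cspg4* of the NSC and pNSC groups and lay above Sox2-GFP brain NSCs at 215, 217 and 215 (log2 fold change 0.82 ± 0.02, short of the fold limit). Only Tail cells were higher, at 409.8 and 404 cpm, where *Cspg4* was 11.1-fold above Tail-pNSC. Lung cells had 50.01 and 47.7 cpm, so that the gene was 2.91-fold higher in Lung-pNSC and 7.65-fold higher in Sox2-GFP lung pNSCs. The direction against the tissue therefore differed between tail and lung. The pericyte genes summed to 829 to 831 cpm in Tail and 780 to 803 in Lung. The sums were 216 to 226 in Tail-pNSC, 170 to 181 in Lung-pNSC and 142 to 146 in Sox2-GFP lung pNSCs. In each pNSC group 5 of 6 were lower, all but *Notch3*. Of all genes, 32.6% were lower in Tail-pNSC and 34.9% in both lung pNSC groups. The part of pericyte genes in the *Cspg4* level was not tested. Over the groups *Cspg4* spanned 10.4-fold, with 1 of 10 neighbouring pairs overlapping.

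*Gpr17*, the receptor of the committed stage (chromosome 18, minus strand), was lower in all 5 pNSC groups than in the brain NSCs of their experiment, with no overlap of samples in any, and each was called. Sox2-GFP brain NSCs had 396, 392 and 393 cpm and Sox2-GFP lung pNSCs 1.63, 2.00 and 1.86, a 214-fold difference (log2 fold change -7.74 ± 0.05). Brain-NSC had 26.7 and 25.5 cpm, Lung-pNSC 3.51 and 3.24, and Tail-pNSC 1.03 and 0.760. The level was thus 7.76-fold lower in Lung-pNSC (-2.96 ± 0.14) and 29.2-fold lower in Tail-pNSC (-4.87 ± 0.19).

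Markers of other neural cells were lower along with *Gpr17*, *Pdgfra*, *Myrf* and *Cnp* in Sox2-GFP lung pNSCs. Of 6 astrocyte genes 5 were lower than in Sox2-GFP brain NSCs (9.99% of all genes) and 0 higher (5.76%). Their summed level was 1549 to 1562 cpm against 3258 to 3276. *Aqp4*, the astrocyte water channel, had a mean of 3.41 cpm against 242, and *Aldh1l1*, an astrocyte enzyme, 53.6 against 499. Of 6 neuron genes 4 were lower and 1 was higher, with a summed level of 1086 to 1099.7 cpm against 1384 to 1422. In the other pNSC comparisons with brain NSCs, 4 of 6 astrocyte genes were lower in Tail-pNSC (6.59% of all genes) and 1 in Lung-pNSC (4.15%). In Wnt1Cre-mTmG Tail pNSCs 2 were lower (9.05%) and in the DRG pNSCs 4 (6.41%), and in all of these 0 were higher. Of the 6 neuron genes, 0 were higher and 1 lower in Tail-pNSC, and 0 were higher and 4 lower in Lung-pNSC. In Wnt1Cre-mTmG Tail pNSCs 3 were higher and 1 lower, and in the DRG pNSCs 0 were higher and 2 lower. The part of other neural cells in the levels of the 10 genes was not tested.

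The difference in *Gpr17* was smaller in the Wnt1-Cre experiment. The brain NSCs had 43.5, 36.9 and 45.1 cpm, the tail pNSCs 10.6, 10.4 and 11.9 and the DRG pNSCs 16.3, 16.3 and 19.4, so that the level was 3.82-fold lower in tail pNSCs (edgeR log2 fold change -1.93 ± 0.09, adjusted p = 2.77e-12) and 2.43-fold lower in DRG pNSCs (-1.28 ± 0.09, adjusted p = 4e-09). DRG NCSCs went the other way, at 118, 129 and 124 cpm, 2.97-fold above the brain NSCs (1.57 ± 0.07, and 1.57 without replicate 3). The tail and DRG pNSCs were 11.3-fold and 7.22-fold below the NCSCs (log2 fold changes -3.50 and -2.85, each the same to 2 decimals without NCSC replicate 3). Lung cells had 5.44 and 4.93 cpm and Tail cells 4.21 and 5.04, which overlapped with each other. *Gpr17* was 5.47-fold lower in Tail-pNSC than in Tail and 2.87-fold lower in Sox2-GFP lung pNSCs than in Lung, and in Lung-pNSC the difference from Lung fell short of the fold limit (-0.65 ± 0.19). *Lims2* overlaps *Gpr17* on the other strand. Its mean level was 94.3 cpm in Lung, 32.1 in DRG NCSCs, 14.8 in Sox2-GFP brain NSCs, 10.6 in Tail and at most 1.88 in the other groups. Whether reads were counted by strand is not given, so the low *Gpr17* values in Lung and Tail are uncertain.

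*Bcas1*, a marker of the same committed stage (chr2:170346991-170427845, minus strand), showed the opposite order. In all 5 comparisons every pNSC sample was above every brain NSC sample, and 3 of the 5 were called. Brain-NSC had 65.6 and 63.0 cpm, Lung-pNSC 189.6 and 177 and Tail-pNSC 221 and 209, so that the level was 2.84-fold and 3.34-fold higher (log2 fold changes 1.504 ± 0.04 and 1.74 ± 0.04). Wnt1Cre-mTmG brain NSCs had 58.7, 60.3 and 56.6 cpm. Their DRG pNSCs, at 155, 158 and 155, were 2.66-fold higher (1.41 ± 0.05), and the tail pNSCs, at 106, 112 and 102, were short of the fold limit (0.87 ± 0.05). The smallest difference was in Sox2-GFP lung pNSCs, at 161, 166 and 159.7 cpm against 133, 127 and 128 (0.33 ± 0.03).

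The larger contrast in *Bcas1* was with NCSCs and with lung and tail cells. DRG NCSCs had 1.76, 1.42 and 1.92 cpm, Lung 6.31 and 5.49 and Tail 7.86 and 6.51, all below the lowest NSC or pNSC sample. Against NCSCs the gene was 62.6-fold higher in Wnt1Cre-mTmG Tail pNSCs and 91.2-fold higher in DRG pNSCs (log2 fold changes 5.97 ± 0.08 and 6.51 ± 0.08, or 6.05 and 6.60 without NCSC replicate 3), and 34.2-fold lower in NCSCs than in brain NSCs (-5.10 ± 0.09, and -5.18 without it). It was 28.03-fold higher in Tail-pNSC than in Tail, 30.2-fold higher in Lung-pNSC than in Lung and 27.0-fold higher in Sox2-GFP lung pNSCs than in Lung. No pair of neighbouring groups overlapped in the order of *Bcas1*. The antisense genes *Bcas1os1* and *Bcas1os2* had at most a mean of 1.69 cpm in any group.

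*Myrf*, the transcription factor that switches on myelin genes (chr19:10208272-10240748, minus strand), was read at a few cpm in NSCs and pNSCs. Brain-NSC had 2.64 and 2.83 cpm, Lung-pNSC 2.18 and 1.62, and Tail-pNSC 1.94 and 2.23. Both pNSC groups lay below, but the differences of -0.52 ± 0.23 (edgeR adjusted p = 0.0666) and -0.38 ± 0.23 (adjusted p = 0.171) on the log2 scale were not called. In the Wnt1-Cre experiment the brain NSCs (2.86, 3.87 and 3.38 cpm), tail pNSCs (3.19, 2.81 and 2.06) and DRG pNSCs (3.73, 3.74 and 2.21) overlapped. The log2 differences of -0.31 ± 0.23 (edgeR adjusted p = 0.244) and -0.05 ± 0.25 (adjusted p = 0.894) were not called. Sox2-GFP brain NSCs were higher, at 9.91, 8.86 and 10.0 cpm, and *Myrf* was 4.07-fold lower in Sox2-GFP lung pNSCs (2.202, 2.18 and 2.62 cpm; -2.02 ± 0.12). Over the 11 groups 7 of the 10 neighbouring pairs overlapped.

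The highest *Myrf* level by far was in lung cells, at 101 and 99.0 cpm, against 1.97 and 1.79 in tail cells. It was 53.0-fold lower in Lung-pNSC and 43.1-fold lower in Sox2-GFP lung pNSCs than in Lung, and did not differ detectably between Tail-pNSC and Tail (0.07 ± 0.27, edgeR adjusted p = 0.816). The 4 epithelial genes on the list summed to 691 to 705 cpm in Lung, 374 to 378 in Tail and at most 0.178 in both lung pNSC groups. All 4 were lower in both than in Lung (34.9% of all genes in each), and their part in the *Myrf* level was not tested. DRG NCSCs had 8.38, 7.42 and 6.06 cpm, 2.2-fold above the Wnt1Cre-mTmG brain NSCs (1.14 ± 0.19, and 1.25 without replicate 3). *Myrf* was lower than in NCSCs by -1.44 ± 0.17 in the tail pNSCs and by -1.19 ± 0.20 in the DRG pNSCs on the log2 scale (-1.55 and -1.30 without NCSC replicate 3), and the latter came to -0.98, under the fold limit, without DRG pNSCs replicate 3.

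*Cnp*, an enzyme of non-compact myelin that appears early in the lineage (chr11:100574904-100591729, plus strand), was the most abundant of the late genes and was read at high levels everywhere. Brain-NSC had 120.02 and 123 cpm, Lung-pNSC 91.3 and 95.7 and Tail-pNSC 68.7 and 64.2, so that both pNSC groups lay below without overlap, but within the fold limit (log2 fold changes -0.39 ± 0.05 and -0.87 ± 0.05). Wnt1Cre-mTmG brain NSCs had 193, 191 and 194 cpm, with the tail pNSCs below at 104, 104 and 109 (-0.86 ± 0.04) and the DRG pNSCs above at 249.8, 261 and 259 (0.41 ± 0.04). The gene was called in 1 comparison with brain NSCs, 4.42-fold lower in Sox2-GFP lung pNSCs (76.0, 78.9 and 81.2 cpm) than in Sox2-GFP brain NSCs (352, 345 and 347). DRG NCSCs had the highest level, at 372, 381 and 362 cpm. That was 0.96 ± 0.03 above brain NSCs on the log2 scale, just under the fold limit and just over it with other scalings (1.00). The tail pNSCs were 3.54-fold below the NCSCs (-1.82 ± 0.04, and -1.84 without NCSC replicate 3).

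Lung cells had 71.8 and 71.7 cpm of *Cnp* and tail cells 40.2 and 43.2, the lowest of all. Each pNSC group was above its tissue without being called (0.35 ± 0.05 in Lung-pNSC, 0.11 ± 0.04 in Sox2-GFP lung pNSCs and 0.59 ± 0.06 in Tail-pNSC). *Cnp* spanned 8.92-fold over the groups, the least of the 6 genes, and no neighbouring pair overlapped. *Dnajc7* overlaps its end on the other strand and was read in every group, so the counts of both are uncertain to that extent.

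*Mag*, *Mog*, *Mobp* and *Opalin*, which encode proteins of compact or adaxonal myelin and the oligodendrocyte surface, were at the edge of detection in NSCs and pNSCs, and their raw counts are given. *Mag* (chr7:30899176-30914873, minus strand) had no count in any sample of Brain-NSC, Lung-pNSC and Sox2-GFP lung pNSCs, which with a floor of 3 counts allows up to 0.133 to 0.167 cpm per sample, and 0 to 4 counts in the samples of the other NSC and pNSC groups. The 7 counts in Sox2-GFP brain NSCs against 0 in the lung pNSCs were called (edgeR adjusted p = 0.00532), but give no fold above the floor. *Mag* was read instead in Tail, with 280 and 262 counts (16.2 cpm in the mean), in Lung, with 73 and 35, and in DRG NCSCs, with 18, 17 and 16.

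*Mag* was 603-fold higher in Tail than in Tail-pNSC, where 1 count was read (95% counting interval 108 to 23858), and at least 19.9-fold and 22.2-fold higher in Lung than in Lung-pNSC and Sox2-GFP lung pNSCs. It was 9.47-fold higher in NCSCs than in Wnt1Cre-mTmG brain NSCs (3.06 to 47.4), 18.3-fold higher than in the tail pNSCs (5.92 to 91.7) and 27.5-fold higher than in the DRG pNSCs (4.73 to 1109). These intervals cover counting error only. With any 1 of the NCSC samples left out, or any 1 of the tail pNSC samples in the comparison of these with NCSCs, *Mag* no longer passed the low-count filter, so that no value could be had. Markers of Schwann cells and neural crest were also read in the groups with *Mag*. Their 10 genes summed to 1496 to 1511 cpm in Tail, 866 to 881 in Lung and 3622 to 3928 in NCSCs, against 39.8 to 168 in the NSC and pNSC samples. Of those tested, 10 of 10 were lower in Tail-pNSC than in Tail (32.6% of all genes). In NCSCs 8 of 9 were higher than in brain NSCs (22.1%). Lung was mixed, with 8 of 10 lower (34.9%) and 2 higher (20.2%) in Lung-pNSC. In Sox2-GFP lung pNSCs 8 of 9 were lower (34.9%) and 1 higher (21.3%) than in Lung. The neural crest factor *Foxd3* had 368 cpm in NCSCs and 5.48 in Tail, but 0.0895 in Lung against 0.801 in Lung-pNSC. *Cdh19*, a cadherin of Schwann cell precursors, had 942 cpm in NCSCs and 5.87 in Tail, but 1.34 in Lung against 50.1 in Lung-pNSC and 125 in Sox2-GFP lung pNSCs. The part of such cells in the *Mag* counts was not tested.

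*Mog* (chr17:37010743-37023398, minus strand), the surface protein of the outermost myelin, reached at most 13 counts in any sample, in Lung, and was tested in none of the comparisons of the 3 experiments because of its low counts. Its counts were 5 and 13 in Lung, 5 and 5 in Tail, 0 in all DRG NCSCs and Tail-pNSC samples, and between 0 and 4 in the other groups.

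*Mobp* and *Opalin*, which are made late in oligodendrocytes of the central nervous system, had low counts in some NSC and pNSC groups and close to none in lung and tail cells, the reverse of *Mag*. *Mobp* (chr9:120149707-120181484, plus strand) had 15, 16 and 11 counts in Wnt1Cre-mTmG brain NSCs, against 0, 0 and 0 in the tail pNSCs, 0, 0 and 1 in the DRG pNSCs and 1, 0 and 0 in DRG NCSCs. It was thus at least 9.09-fold lower in tail pNSCs, 40.7-fold lower in DRG pNSCs (counting interval 6.92 to 1646) and 75.4-fold lower in NCSCs (12.8 to 3048, and still called without NCSC replicate 3), and each was called (edgeR adjusted p = 9.92e-07, 5.39e-05 and 1.30e-06). Brain-NSC had 8 and 6 counts, Tail-pNSC 3 and 8 and Lung-pNSC 3 and 5, so that only Tail-pNSC overlapped with Brain-NSC, and the gene was not tested there. Sox2-GFP brain NSCs had 0, 1 and 0 counts, so the presence of *Mobp* reads was not shared by the brain NSC groups.

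*Opalin* (chr19:41061710-41077113, minus strand) was highest in Brain-NSC, with 14 and 14 counts, against 0 and 2 in Lung-pNSC and 8 and 6 in Tail-pNSC. It was 13.6-fold lower in Lung-pNSC (counting interval 3.42 to 118, edgeR adjusted p = 2.17e-04), a call that DESeq2 did not make, as it gave no adjusted p, and the difference in Tail-pNSC was not called (log2 fold change -0.87 ± 0.59, adjusted p = 0.224). Tail cells had 0 and 0 counts and Lung cells 1 and 0, and *Opalin* was at least 2.11-fold higher in Tail-pNSC than in Tail (adjusted p = 0.00101). The other groups had between 0 and 6 counts per sample.

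**Figure D4:**
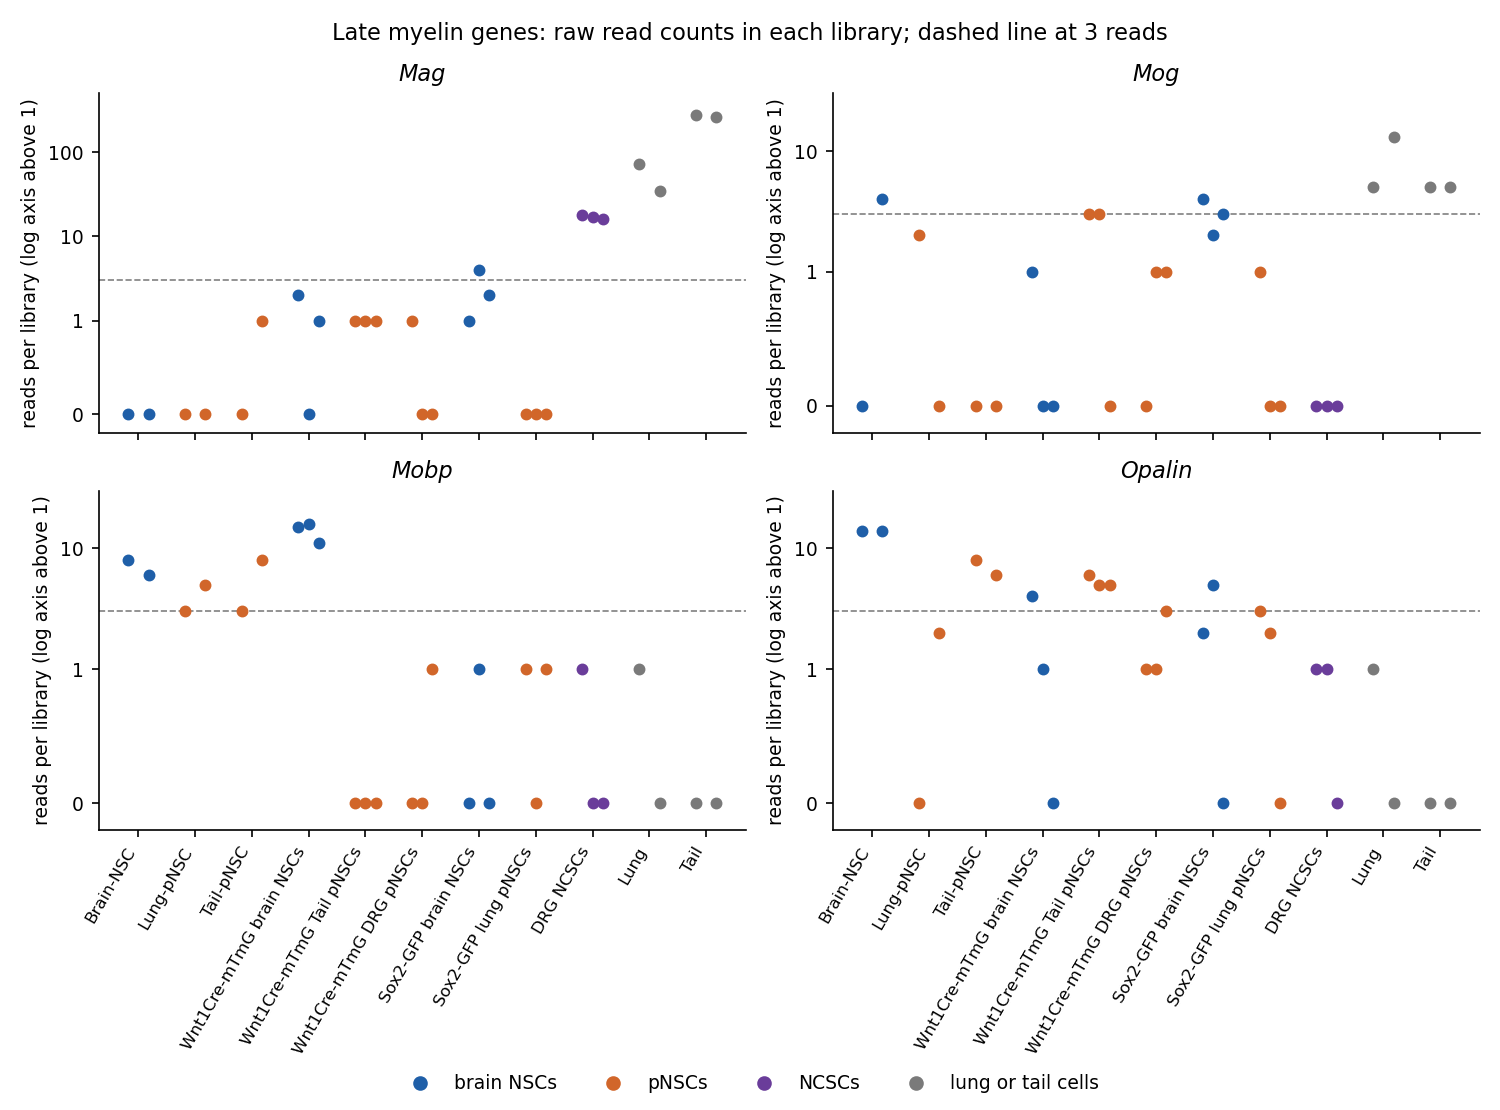
Raw read counts of *Mag*, *Mog*, *Mobp* and *Opalin* in every sample, on an axis that is logarithmic above 1, with a dashed line at 3 counts. *Mag* is above the line in Tail (280 and 262), Lung (73 and 35) and DRG NCSCs (16 to 18), *Mobp* reaches 16 in Wnt1Cre-mTmG brain NSCs, *Opalin* reaches 14 in Brain-NSC, and *Mog* reaches 13 in Lung.

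In the comparisons with NCSCs or with tissue cells 4 to 7 of the 10 genes were called, and the share of all genes called was larger there than in the comparisons of pNSCs with brain NSCs. In DRG NCSCs against Wnt1Cre-mTmG brain NSCs 6 of 8 were called (36.9% of all genes tested), 4 higher (22.1%), namely *Cspg4*, *Gpr17*, *Myrf* and *Mag*, and 2 lower (14.8%), *Bcas1* and *Mobp*. Against NCSCs, 7 of 8 were called in the tail pNSCs (37.9%), 2 higher (15.3%) and 5 lower (22.6%). In the DRG pNSCs 4 of 8 were called (38.3%), 1 higher (15.1%) and 3 lower (23.3%), and *Bcas1* was the only one called higher in both. Without NCSC replicate 3 the counts were 5, 6 and 3. In Tail-pNSC against Tail 6 of 8 were called (46.7%), 2 higher (14.1%) and 4 lower (32.6%). In Lung-pNSC against Lung 5 of 8 were called (55%), 2 higher (20.2%) and 3 lower (34.9%). In Sox2-GFP lung pNSCs against the same Lung samples 6 of 7 were called (56.3%), 2 higher (21.3%) and 4 lower (34.9%). *Bcas1* was higher and *Pdgfra* and *Mag* lower in each of these 3.

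The pNSC effect of the same tissue was compared between experiments by an interaction term, fitted with edgeR to the 28 samples together. For tail, 3 of 9 genes differed (16% of 17393 genes), 1 with a higher (7.05%) and 2 with a lower (8.96%) value in the Nes-GFP experiment. Relative to brain NSCs, *Cspg4* and *Gpr17* were lower in the Nes-GFP than in the Wnt1-Cre experiment by log2 differences of -1.80 ± 0.07 and -2.93 ± 0.21, and *Mobp*, which had no count in the Wnt1Cre-mTmG Tail pNSCs, differed the other way. No difference was detected for *Cnp*, at 0.00 (95% interval -0.12 to 0.11). For lung, 5 of 9 differed (14.1%). *Pdgfra*, *Gpr17*, *Bcas1*, *Myrf* and *Cnp* were higher relative to brain NSCs in the Nes-GFP than in the Sox2-GFP experiment (8.24% of all genes), and 0 were lower (5.89%). In that comparison the brain NSC groups stood farther apart than the lung pNSC groups for all 5 genes. For *Gpr17* the means were 26.1 and 393 cpm in brain NSCs against 3.37 and 1.83 in the lung pNSCs. For *Cnp* they were 121 and 348 against 93.5 and 78.7, and for *Pdgfra* 8.62 and 96.1 against 7.02 and 21.5. For *Myrf* they were 2.73 and 9.61 against 1.90 and 2.34, and for *Bcas1* 64.3 and 129 against 183 and 162. The reporter differs between the experiments, and the lung donors were adult in one and postnatal in the other, so these cannot be told apart from the experiment.

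A further 38 genes of the lineage, 14 of OPCs, 9 of the committed stage and 15 of myelin, were followed beside the 10. In Tail-pNSC against Brain-NSC 4 of the 34 tested were higher (4.31% of all genes) and 13 lower (6.59%), with a median log2 fold change of -0.50 (0.00 over all genes). In Lung-pNSC the counts were 5 (4.56%) and 5 (4.15%) of 34, with a median of -0.01. In the Wnt1-Cre experiment 3 were higher (9.16%) and 9 lower (9.05%) of 32 in tail pNSCs, with a median of -0.47, and 2 were higher (3.12%) and 7 lower (6.41%) in DRG pNSCs, with a median of -0.07. In Sox2-GFP lung pNSCs 1 was higher (5.76%) and 21 lower (9.99%) of 35, with a median of -1.24. Of these 21, 7 were OPC genes, 6 genes of the committed stage and 8 myelin genes.

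*Olig1* and *Olig2*, the transcription factors that specify the lineage, stood at high levels in all NSCs and pNSCs. The group means were 1596 to 3302 cpm for *Olig1* and 884 to 1382 cpm for *Olig2*, and neither was called in any pNSC comparison with brain NSCs. In DRG NCSCs they had 113 and 14.9 cpm, in Tail 1.5 and 0.0881, and in Lung no count. *Sox10*, which acts in oligodendrocytes and in the neural crest, had a mean of 792 cpm in NCSCs, 19.9 in Tail, 14.5 in Wnt1Cre-mTmG brain NSCs, 9.44 in Sox2-GFP brain NSCs and 7.19 in Wnt1Cre-mTmG Tail pNSCs, and under 1 cpm elsewhere. It was 2.01-fold lower in the Wnt1Cre-mTmG Tail pNSCs, 21.1-fold lower in the DRG pNSCs and 54.0-fold lower in Sox2-GFP lung pNSCs than in their brain NSCs. *Nkx2-2*, a factor of OPC differentiation, was lower in Lung-pNSC (-4.35 ± 0.25), Tail-pNSC (-2.33 ± 0.19) and Sox2-GFP lung pNSCs (-4.91 ± 0.13). In the Wnt1-Cre experiment it had 31.9 cpm in the DRG pNSCs against 26.0 in the brain NSCs, a difference that was not called (0.29 ± 0.09). The tail pNSCs of that experiment had a mean of 14.2 cpm (12.4 to 15.4), below all brain NSC samples (25.5 to 26.7), and this was not called either.

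**Figure D5:**
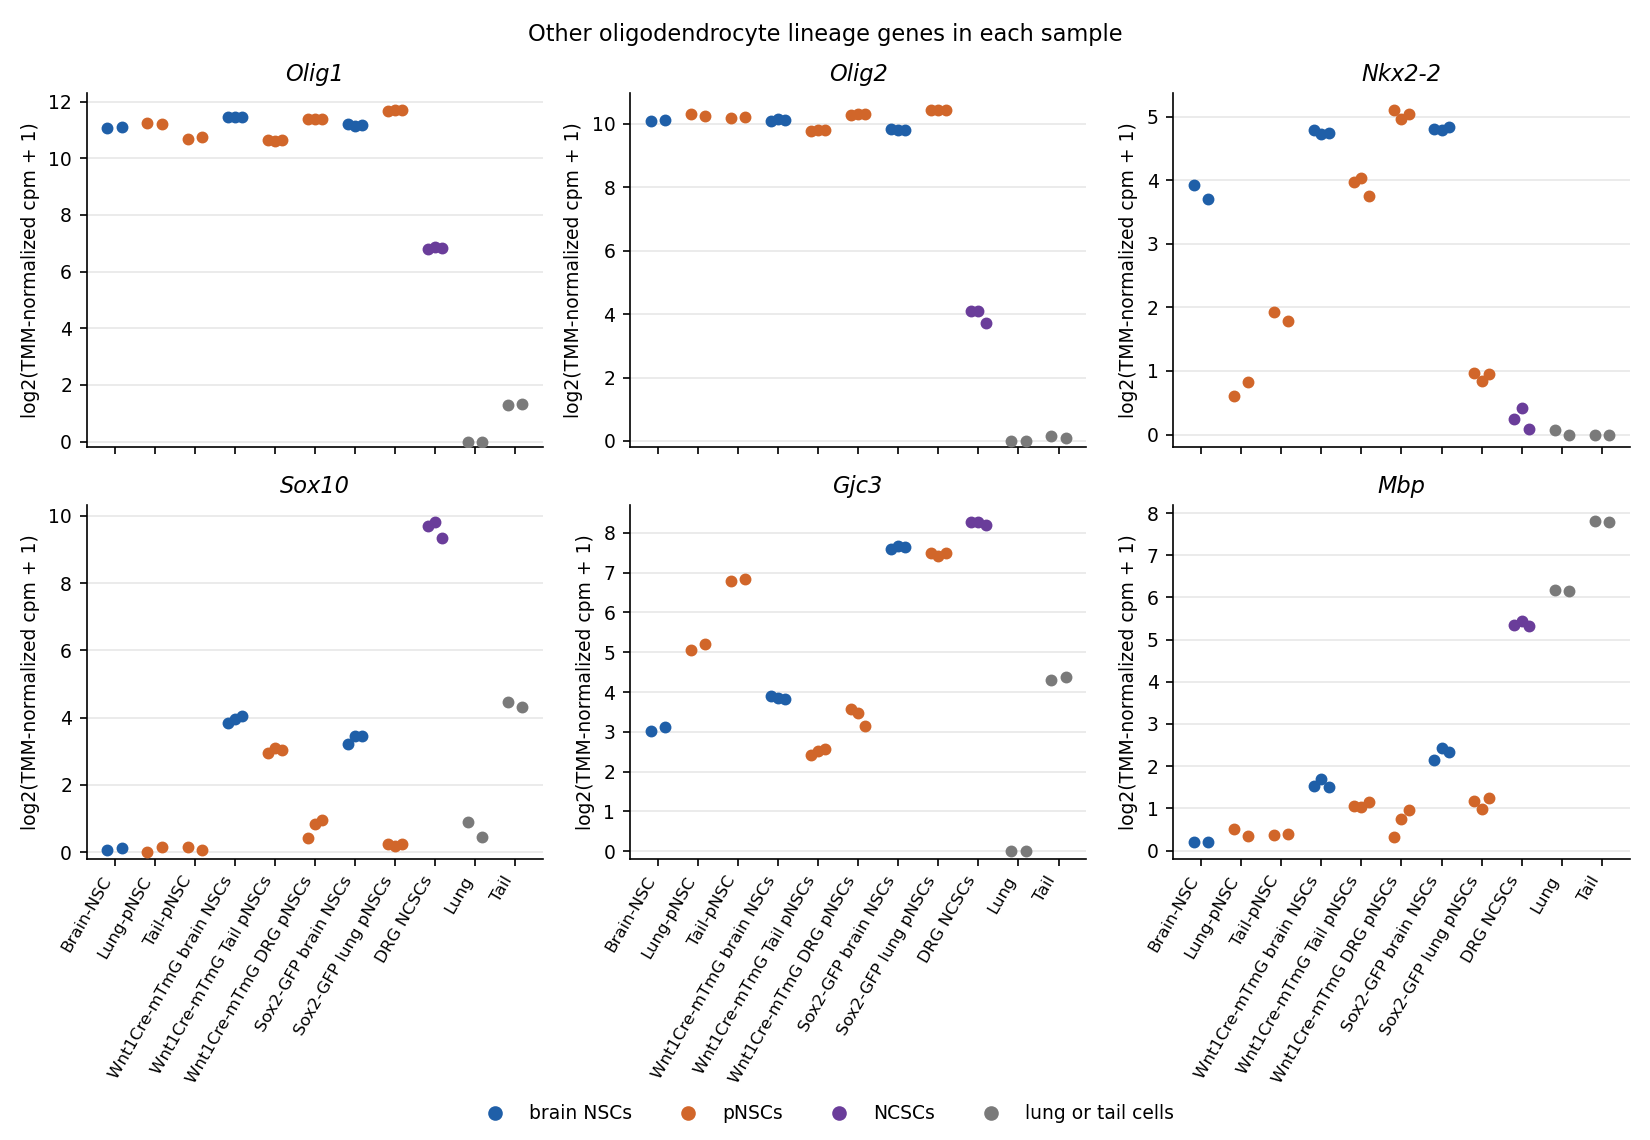
log2(TMM-normalized cpm + 1) of *Olig1*, *Olig2*, *Nkx2-2*, *Sox10*, *Gjc3* and *Mbp* in every sample, each on its own axis. *Olig1* and *Olig2* are high in all NSC and pNSC samples and low or absent in DRG NCSCs, Lung and Tail, while *Sox10* and *Gjc3* are highest in DRG NCSCs and *Mbp* in Tail.

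*Mbp*, a main protein of compact myelin, was highest where *Mag* was read. It had 221 cpm in Tail, 70.2 in Lung, 40.4 in NCSCs and at most 3.96 in NSC and pNSC groups. In DRG NCSCs against brain NSCs 14 of 32 of the further genes were higher (22.1% of all genes) and 13 lower (14.8%), with 9 of 11 myelin genes higher and 9 of 13 OPC genes lower. The myelin genes that were higher included *Aspa* (5.25 ± 0.07), an enzyme that breaks down N-acetylaspartate, and the OPC genes that were lower included *Olig2* (-6.20 ± 0.07) and *Scrg1* (-5.79 ± 0.19).

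Single genes of the list differed strongly in some pNSC groups. *Gjc3*, which encodes a connexin of myelinating glia, rose from a mean of 7.42 cpm in Brain-NSC to 112 in Tail-pNSC and 34.1 in Lung-pNSC, and fell from 13.6 in Wnt1Cre-mTmG brain NSCs to 4.67 in the tail pNSCs. *Trf*, the iron carrier transferrin, was 16.9-fold higher in Lung-pNSC and 3.17-fold higher in Sox2-GFP lung pNSCs. *Ugt8a*, an enzyme of galactolipid synthesis, was 7.45-fold higher in Lung-pNSC and 8.29-fold lower in the Wnt1Cre-mTmG Tail pNSCs. It was also called lower in Sox2-GFP lung pNSCs (mean 6.80 against 17.2 cpm) and in Tail-pNSC (0.399 against 0.987). *Vcan*, a proteoglycan of OPC matrix, was 2.21-fold and 2.09-fold higher in the tail and DRG pNSCs of that experiment, and *Cacng4* was 3.84-fold lower in its tail pNSCs. *Aspa* and *Lhfpl3* were 21.2-fold and 5.21-fold lower in Tail-pNSC, *Matn4* 32.3-fold lower in Sox2-GFP lung pNSCs. *Scrg1* was 7.67-fold lower in Tail-pNSC, 3.36-fold in Lung-pNSC and 4.21-fold in the DRG pNSCs, and was also called lower in Sox2-GFP lung pNSCs (16.1 against 37.0 cpm).

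The genes whose pattern over the 11 group means was most like that of a member were other than members. They were *Cdo1* for *Pdgfra* (Pearson's r = 0.98 on log2(cpm + 1)), *Mmp16* for *Cspg4* (0.84), *Pcdha11* for *Gpr17* (0.90), *Cap2* for *Bcas1* (0.97), *Sort1* for *Myrf* (0.98) and *Zcchc18* for *Cnp* (0.93). *Pcdha11* was low in every group, with means of 0.0761 to 1.28 cpm, in part below the detection floor. *Myrf* and *Sort1* both stood far higher in Lung (99.8 and 538 cpm) than in the next group, Sox2-GFP brain NSCs (9.61 and 198). The best 3 were rarely the same with Spearman's rho, where at most 1 of 3 was shared. Among the members the closest pair of the 6 detected genes was *Gpr17* and *Cnp* (r = 0.87), and *Pdgfra* and *Cspg4*, both used as OPC markers, had r = 0.03. The groups share experiments and 2 tissues, so these are descriptions over 11 points.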

How the data were processed

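RNA-seq of polyA-selected RNA was measured in 28 samples of 11 groups, taken from the sample labels. Per the labels, GRCm38 was the build, and the authors used HISAT2 (v2.2.1) on single-end reads, Cufflinks (v2.2.1) and htseq-count (v1.99.2). The deposited table holds raw counts for 28244 genes. The strand setting, the counting mode and the annotation release are not given in the sources used here, so genes that overlap on opposite strands may share reads. Total counts ran from 9808246 to 22637031 per sample.

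Counts were tested with edgeR 4.0.16 in R 4.3.3. In each experiment genes were kept by filterByExpr (minimum count 10, minimum total 15; 16948, 14448 and 16234 genes), scaled by TMM and fitted with a quasi-likelihood model over all its groups, and the interactions were fitted over all 28 samples (17393 genes). P-values were adjusted within each comparison over all genes tested. Levels are cpm scaled over all 28 samples. A fold against a group with no counts was computed against 3 counts per sample and is a lower bound, and with 1 to 3 counts in a group it is given with an exact 95% interval, which covers counting error only. The fits were tested on simulated data.

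The alternatives were DESeq2 1.42.0, RLE size factors, no low-count filter, only the groups compared in the fit, a replicate block, no fold limit and each replicate left out. Same-numbered samples did not deviate together (r between -0.029 and 0.028), so the main fits have no block. The 10 members and all gene lists were chosen with earlier results of these data known. All members are named. Of 38 further lineage genes 6 are always named (1 of them is not reported here), and beyond them up to 3 rises and 3 falls per comparison with pNSCs or NCSCs against brain NSCs are, if called, not overlapping and at 5 cpm or more in the higher group. Likeness was taken as Pearson's r over the 11 group means of log2(cpm + 1).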

Additional observations from a re-analysis of the deposited data

Results flagged for a closer look

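The difference between pNSCs and the brain NSCs of the same experiment was itself compared between experiments, and 8 such differences passed an adjusted p of 0.05 and a log2 size of 1 in edgeR's interaction test. For tail, the Nes-GFP effect minus the Wnt1-Cre effect was -1.80 ± 0.07 for *Cspg4* (edgeR adjusted p = 2.61e-22) and -2.93 ± 0.21 for *Gpr17* (adjusted p = 8.57e-15). It was 7.26 ± 1.31 for *Mobp* (adjusted p = 1.58e-05), where the Wnt1Cre-mTmG Tail pNSCs had no count, so that this fitted value depends on the prior count and is not a size.

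For lung, the Nes-GFP effect minus the Sox2-GFP effect was 1.88 ± 0.16 for *Pdgfra* (edgeR adjusted p = 1.25e-12), 4.80 ± 0.21 for *Gpr17* (9.44e-21), 1.18 ± 0.06 for *Bcas1* (3.97e-18), 1.52 ± 0.29 for *Myrf* (2.77e-05) and 1.77 ± 0.06 for *Cnp* (4.11e-25). All 5 point the same way. They share their samples, so they are not 5 separate comparisons. Dixon's test of a single value cannot be done on 2 samples and has little power on 3, so none was made.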

How the results depend on the processing

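The number of members called kept within 1.5 times its value in all 13 comparisons under DESeq2, RLE size factors, no low-count filter and the replicate block, and in the 11 without an interaction with only the groups compared in the fit. The block gave the same counts (2 to 7 members), while the sample numbers do not pair the samples. Without a limit on the fold change it rose to 6 from 3 in Lung-pNSC against Brain-NSC, to 5 from 2 in Wnt1Cre-mTmG Tail pNSCs against brain NSCs and to 5 from 3 in the tail interaction. Over all genes, adjusted p alone called 8318, 6835, 9460, 6634 and 10636 genes in the pNSC comparisons with brain NSCs (in the order of the report), 11804, 12076 and 11903 in those with NCSCs, 14042, 14582 and 14736 in those with tissue cells and 8466 and 8151 in the interactions for tail and lung, because small differences pass where replicates lie so close.

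*Cnp* in DRG NCSCs against brain NSCs reached the fold limit with RLE and with DESeq2 (1.00), and DESeq2 gave *Opalin* in Lung-pNSC against Brain-NSC a log2 fold change of -3.68 with no adjusted p. Only differences that were not called changed sign. The *Cnp* tail interaction was 0.0038 with RLE, 0.0041 without the filter and 0.0033 with DESeq2. With 1 replicate left out it ranged from -0.0435 to 0.0594, and that of *Myrf* from -0.22 to 0.0868. Other ranges that cross 0 were -0.23 to 0.15 for *Pdgfra* in Tail-pNSC against Brain-NSC, -1.35 to 0.0408 for *Mag* in Wnt1Cre-mTmG Tail pNSCs and -0.18 to 0.15 for *Myrf* in DRG pNSCs against brain NSCs, -1.67 to 2.25 for *Mobp* in DRG pNSCs against NCSCs, -0.0352 to 0.16 for *Myrf* in Tail-pNSC against Tail and -2.41 to 3.10 for *Opalin* in Lung-pNSC against Lung.

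With 1 replicate left out, the members called were 5 to 6 in NCSCs against brain NSCs, 6 in the tail pNSCs against NCSCs, 3 to 4 in the DRG pNSCs against NCSCs, 7 in Tail-pNSC against Tail, 5 to 6 and 6 to 7 in Lung-pNSC and Sox2-GFP lung pNSCs against Lung, 3 to 4 and 5 to 6 in the interactions, and the same in the others. Depth limits *Mag*, *Mog*, *Mobp* and *Opalin*: at 3 counts per sample the floor was 0.130 to 0.296 cpm, and folds against a group below it are bounds or have wide counting intervals. Where a lone sample was left in a group it was assumed to vary like the other groups.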
